A study of Mus musculus with 4 samples.

Results

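YAP (gene Yap1) and its paralog TAZ (gene Wwtr1), the 4 TEAD transcription factors and 4 of their target genes were followed in sorted mouse hair follicle stem cells. The members were the 10 genes Yap1, Wwtr1, Tead1, Tead2, Tead3, Tead4, Ctgf, Cyr61, Ankrd1 and Amotl2, found by symbol among the 24084 gene rows of the count table. All 10 had a row, and 9 had enough counts to be tested. The exception was Ankrd1, with 0 counts in every library. The members were named as a pathway, with earlier results of these data known.

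The study compared Foxp3-DTR mice with WT mice, both on the C57BL/6 strain and aged 7 to 10 weeks, with 2 RNA-seq libraries per genotype. Every mouse in both groups received diphtheria toxin at 15 ng/g into the peritoneum, and stem cells were taken from back skin epidermis 4 days after depilation, which starts hair regrowth. Foxp3-DTR mice make the toxin's receptor in cells that express Foxp3, so the toxin depletes their regulatory T cells, while WT mice keep theirs. The labels do not say whether each library came from 1 animal or from a pool, so the spread behind the p-values is that of these libraries and may be technical.

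YAP and TAZ are coactivators that carry no DNA-binding domain and reach their genes by binding TEAD factors. The Hippo kinase cascade, with the kinases MST and LATS, phosphorylates them and holds them in the cytoplasm. In skin they are known for keeping basal keratinocytes proliferating and for their response to wounding and stiffness. Much of this control acts on the proteins, which RNA levels do not show. Ctgf and Cyr61 encode secreted matricellular proteins of the CCN family, Ankrd1 a nuclear ankyrin repeat protein and Amotl2 an angiomotin that binds YAP and restrains it. These 4 genes are among the targets most used to read out YAP and TAZ.

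TEAD factors bind the letters CATTCC, the core of the MCAT element. Promoter sequences of 7 of the 10 members were available from RefSeq (GRCm38.p6), in 10 windows of 300 bases that run from 250 bases before to 50 bases after an annotated start. CATTCC or its reverse complement GGAATG was present in 8 of these 10 windows, which belong to 6 of the 7 members. The windows of Wwtr1 overlap and share their site, and windows of Tead3 overlap without sharing a site, so the 10 windows are not independent. Of all 32851 promoter windows of the same length, 14.7% held the letters on either strand. The 2 windows without them were the window of Tead2 and 1 of the 3 windows of Tead3. Another Tead3 window held 3 copies, of which 2 began 123 and 114 bases before the start and 1 began at base 3 after it. The promoter of Cyr61 and the single sites of other members are shown because they let the target genes be compared by sequence before their levels are given. The lines below read 5′ to 3′, with CATTCC in capitals. The Cyr61 line is the 250 bases before the start on the minus strand of chr3:145649986-145650235, and its CATTCC starts 103 bases before the start. Each other line holds CATTCC with 9 bases on either side, read on the strand that spells CATTCC. That is the gene's own strand for Amotl2 and the opposite strand for Ankrd1, Yap1 and Wwtr1.
Cyr61 promoter: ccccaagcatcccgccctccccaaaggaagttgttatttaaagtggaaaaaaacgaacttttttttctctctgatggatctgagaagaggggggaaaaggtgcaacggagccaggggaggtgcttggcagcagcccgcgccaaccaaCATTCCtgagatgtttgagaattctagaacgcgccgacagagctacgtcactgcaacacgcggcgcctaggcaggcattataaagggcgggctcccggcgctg
Amotl2 site, chr9:102717730-102717753, plus strand: aaactctcaCATTCCtggcatagc
Ankrd1 distal site, chr19:36120040-36120063, plus strand: tgagagggtCATTCCtttggcagt
Ankrd1 proximal site, chr19:36119953-36119976, plus strand: gtgaattttCATTCCagacttagt
Yap1 site, chr9:8004723-8004746, plus strand: gcgtcgctaCATTCCtgcagactc
Wwtr1 site, chr3:57576032-57576055, plus strand: gcctatctgCATTCCtttgagttt
Cyr61, Amotl2 and Ankrd1 thus all carried the letters in the 250 bases before an annotated RefSeq start. The sites of Amotl2 and Ankrd1 lie inside the gene coordinates given below, and that of Cyr61 lies outside them. No promoter window of Ctgf was available, and a relation between the letters and the expression levels was not tested. A match of letters is a description and not evidence of binding.

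Gene counts per library ranged from 13911765 to 15923154. All 10 follicle stem cell markers listed for the check of the sort were detected, with summed levels of 27457 and 31806 CPM (counts scaled to a common effective library size) in Foxp3-DTR C and D, against 33388 and 34390 CPM in WT A and C. Krt5 alone gave 11783 and 12822 CPM in Foxp3-DTR, against 15425 and 14467 CPM in WT. Of the 10 markers 3 had positive and 7 negative fold changes. Itga6 stood at 884 and 811 CPM in Foxp3-DTR, against 465 and 581 CPM in WT. Lhx2 stood at 425 and 439 CPM in Foxp3-DTR, against 789 and 804 CPM in WT. The 8 fibroblast markers summed to 27.9 and 31.8 CPM in Foxp3-DTR, against 40.0 and 53.4 CPM in WT, and 3 of the 8 (Lum, Dpt and Mfap5) had 0 counts in all libraries. Of 7 endothelium and pericyte markers 5 had 0 counts in all libraries. Summed immune cell markers stood at 2.85 and 4.32 CPM in Foxp3-DTR, against 10.4 and 2.58 CPM in WT, and melanocyte markers at 116 and 137 CPM in Foxp3-DTR, against 95.5 and 140 CPM in WT. The 7 suprabasal epidermis markers with a row differed within each group, at 1205 and 7033 CPM in Foxp3-DTR C and D, against 8274 and 988 CPM in WT A and C. The groups also differed in sex: Ddx3y, a Y-linked gene, stood at 117 and 83.5 CPM in Foxp3-DTR and had 0 counts in both WT libraries. The sample titles carry the code DEP3 in both Foxp3-DTR libraries and DEP2 in both WT libraries. Effects of genotype, of sex and of anything tied to this code cannot be told apart in the comparison of the groups.

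Tead4 rose in Foxp3-DTR and was the only member past the threshold at an adjusted p under 0.05, by the quasi-likelihood test of edgeR with p-values adjusted by Benjamini-Hochberg over all 12920 genes tested. Of the 9 tested members 1 was called higher and 0 lower. Over all tested genes 0.82% were called higher and 0.426% lower. Before adjustment, 4 members had an edgeR p under 0.05 and were higher and 1 was lower, against 6.76% and 7.89% of all tested genes. The CPM of the groups did not overlap for 8 of the 9 tested members, 6 higher and 2 lower, against 45.7% of all tested genes, 22% higher and 23.7% lower. The members' median log2 fold change was 0.39, and that of all tested genes was -0.01.

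The coactivators Yap1 and Wwtr1 had slightly higher values in Foxp3-DTR and did not pass the threshold. Yap1 (GRCm38 chromosome 9, 7931999 to 8004596, minus strand) stood at 375 and 402 CPM in Foxp3-DTR C and D, against 293 and 299 CPM in WT A and C. Both Foxp3-DTR libraries were above both WT libraries, and each pair lay close together. The log2 fold change was 0.39 ± 0.18 (SE), with a 95% interval of -0.03 to 0.81 and an edgeR adjusted p of 0.38.

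Wwtr1, which encodes TAZ (chromosome 3, 57455649 to 57575910, minus strand), stood at 127 and 118 CPM in Foxp3-DTR C and D, against 103 and 104 CPM in WT A and C. Here too the groups did not overlap, by a narrow margin. Its log2 fold change was 0.24 ± 0.17 (SE), with a 95% interval of -0.16 to 0.65 and an edgeR adjusted p of 0.607. The upper ends of the intervals correspond to a 1.76-fold higher level for Yap1 and a 1.56-fold higher level for Wwtr1, so larger rises lay outside them. Levels of different genes were compared as CPM per kb of exon, because a longer transcript gives more reads. On this scale Yap1 was 1.52 and 1.76 times Wwtr1 in Foxp3-DTR C and D, against 1.46 and 1.48 times in WT A and C.

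**Figure D1:**
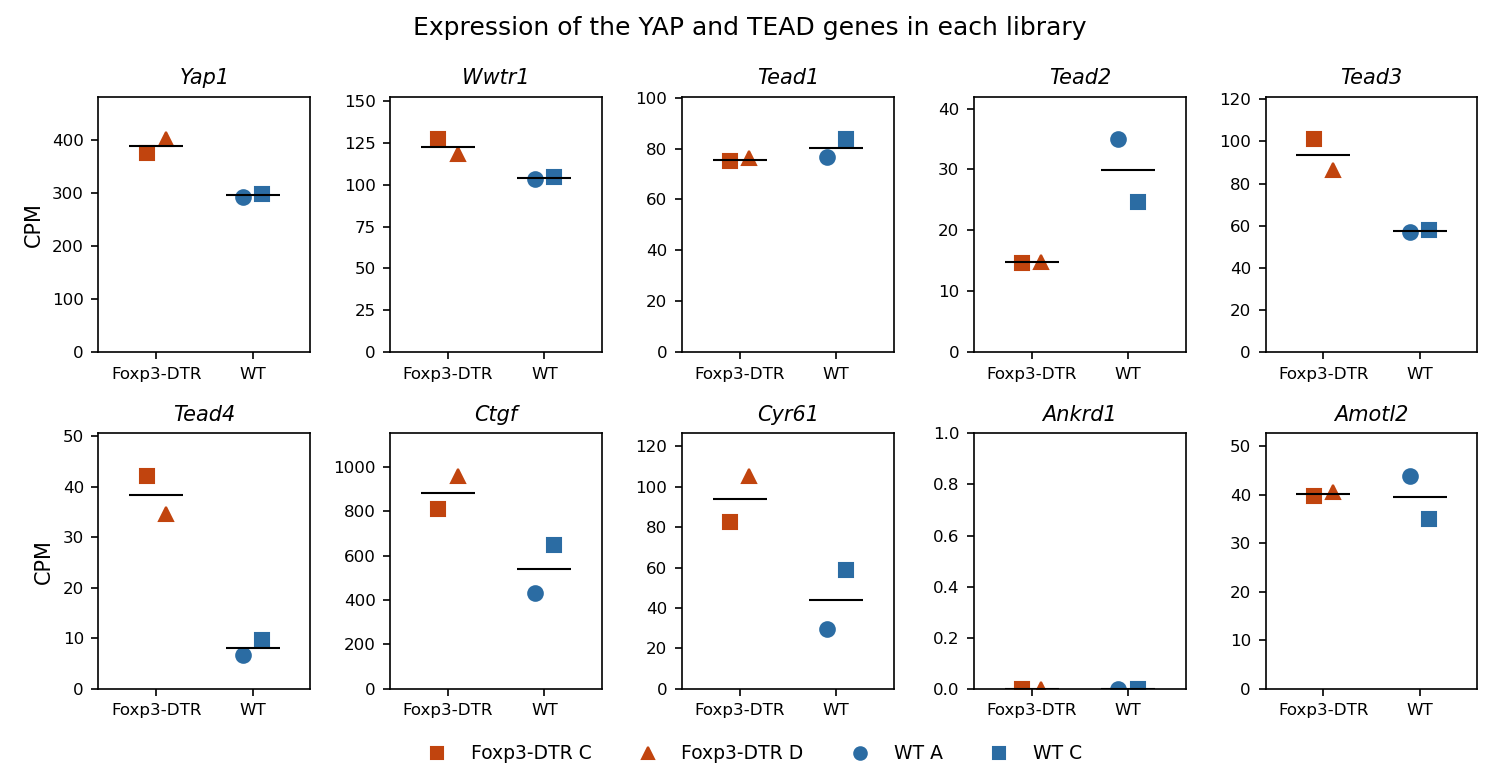
CPM of the 10 genes in each library, 1 panel per gene with its own axis from 0, Foxp3-DTR left of WT, symbols marking replicates and lines the mean of 2 libraries. Tead4 stands at 34.5 and 42.1 CPM in Foxp3-DTR and at 6.69 and 9.59 CPM in WT, Tead2 lies lower in both Foxp3-DTR libraries, and Ankrd1 is at 0 in all libraries.

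The 4 TEAD factors share the DNA-binding TEA domain and did not follow each other. Tead4, known in the mouse embryo for specifying the trophectoderm (chromosome 6, 128224288 to 128300823, minus strand), stood at 42.1 and 34.5 CPM in Foxp3-DTR C and D, against 6.69 and 9.59 CPM in WT A and C. These values came from 635 and 487 counts in Foxp3-DTR, against 95 and 156 counts in WT. The lower Foxp3-DTR library was 3.60 times the higher WT library. The group means were 38.3 ± 5.38 CPM in Foxp3-DTR and 8.14 ± 2.06 CPM in WT (SD, n = 2 each). Tead4 rose by 2.23 ± 0.30 (SE) on the log2 scale, a 4.70-fold higher level, with a 95% interval of 1.51 to 2.95 and an edgeR adjusted p of 0.0335. Without Foxp3-DTR C the log2 fold change was 2.08 and the edgeR adjusted p 0.0815, past the threshold no longer. Without Foxp3-DTR D, WT A or WT C the adjusted p ranged from 0.00985 to 0.0373.

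Tead2, a family member abundant in the early embryo (chromosome 7, 45215753 to 45233644, plus strand), had values in the opposite order. It stood at 14.7 and 14.8 CPM in Foxp3-DTR C and D, against 35.0 and 24.7 CPM in WT A and C. The Foxp3-DTR libraries were nearly equal and both below WT, and the WT libraries differed from each other. On the log2 scale the fold change was -1.02 ± 0.28 (SE), with a 95% interval of -1.69 to -0.35, and the gene did not pass (edgeR adjusted p = 0.144, DESeq2 adjusted p = 0.0568). Cell cycle genes had lower values in the same libraries. A list of 10 such genes, among them Mki67, a marker of cycling cells, summed to 317 and 553 CPM in Foxp3-DTR, against 2027 and 1242 CPM in WT. All 10 were lower at an unadjusted edgeR p under 0.05, against 7.89% of all tested genes. After adjustment over all genes 0 of them passed. In these bulk libraries fewer cells of a type and less RNA per cell cannot be told apart, and the part of cycling cells in the values of Tead2 and Tead4 was not tested.

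Tead3 (chromosome 17, 28331671 to 28350817, minus strand) stood at 101 and 86.4 CPM in Foxp3-DTR C and D, against 56.8 and 58.1 CPM in WT A and C. Both Foxp3-DTR libraries were above WT by more than the distance between replicates. The log2 fold change was 0.71 ± 0.18 (SE), with a 95% interval of 0.27 to 1.14. The edgeR adjusted p was 0.124, while DESeq2, which called 3.61% of its tested genes higher, gave 0.0304.

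Tead1 (chromosome 7, 112679318 to 112906807, plus strand), a factor needed for heart development in the mouse, stood at 75.0 and 76.2 CPM in Foxp3-DTR C and D, against 76.7 and 83.7 CPM in WT A and C. The groups were separated by less than 1 CPM. Its log2 fold change was -0.08 ± 0.17 (SE), with a 95% interval of -0.50 to 0.33 and an edgeR adjusted p of 0.89.

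Set side by side per kb of exon, the TEAD genes took different places in the groups. Tead4 ranked second in Foxp3-DTR, at 11.7 and 9.59 CPM per kb, and last in WT, at 1.86 and 2.67 CPM per kb. Tead2 was last in Foxp3-DTR, at 3.06 and 3.09 CPM per kb, against 7.31 and 5.16 CPM per kb in WT. The ratio of Tead4 to Tead2 per kb was therefore 3.82 and 3.10 in Foxp3-DTR C and D, against 0.254 and 0.516 in WT A and C. Tead3 held the highest TEAD level in every library, at 15.1 and 12.9 CPM per kb in Foxp3-DTR, against 8.46 and 8.65 CPM per kb in WT. Summed over the family, the level was 35.3 and 31.2 CPM per kb in Foxp3-DTR, against 23.3 and 22.6 CPM per kb in WT. Tead4 made up 33.1% and 30.8% of this sum in Foxp3-DTR, against 7.99% and 11.8% in WT. The shares of Tead1 were 15.6% and 18.0% in Foxp3-DTR, against 24.3% and 27.2% in WT. These shares are descriptions with no test, and they rest on the length of all annotated exons of a gene, which may be longer than the transcripts made in these cells.

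**Figure D2:**
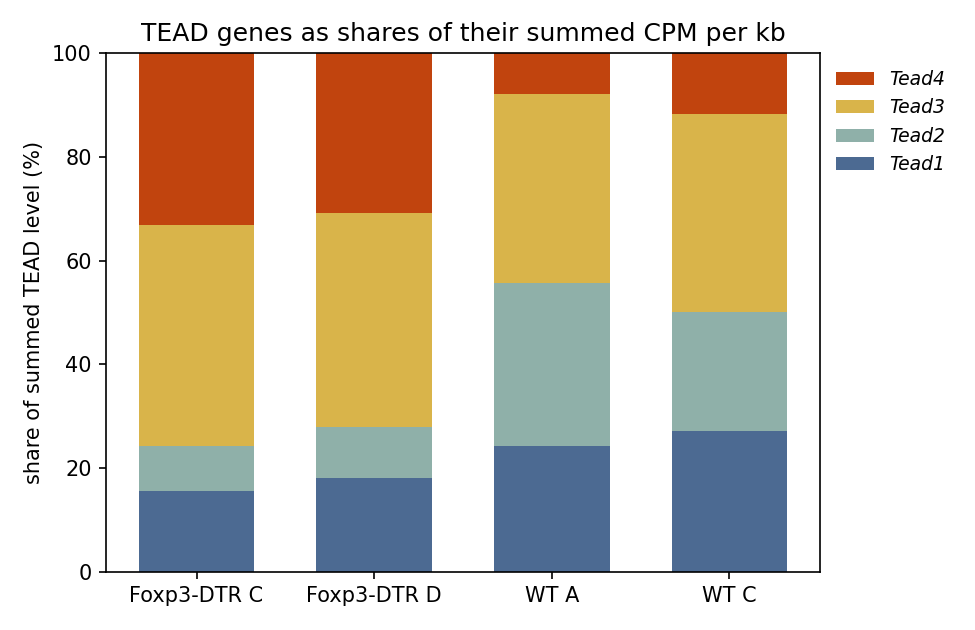
Share of each TEAD gene in the summed TEAD level (percent of CPM per kb of exon) in each library, Foxp3-DTR left of WT. Tead4 takes 33.1% and 30.8% in Foxp3-DTR and 7.99% and 11.8% in WT, while Tead2 takes 8.66% and 9.92% in Foxp3-DTR and 31.4% and 22.8% in WT.

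Among the targets, Ctgf and Cyr61 had higher values in Foxp3-DTR without passing the threshold, Amotl2 was level, and Ankrd1 was not detected. Ctgf, connective tissue growth factor (chromosome 10, 24595442 to 24598683, plus strand), stood at 809 and 958 CPM in Foxp3-DTR C and D, against 430 and 648 CPM in WT A and C. All Foxp3-DTR values were above all WT values, with WT A well below WT C. The means were 883 ± 106 CPM in Foxp3-DTR and 539 ± 154 CPM in WT (SD, n = 2 each). On the log2 scale the fold change was 0.71 ± 0.26 (SE), with a 95% interval of 0.10 to 1.32 and an edgeR adjusted p of 0.26. This fold change was 0.46 without WT A and 1.04 without WT C, so its size depended on which WT library was kept.

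Cyr61, the gene whose promoter is printed above (chromosome 3, 145646976 to 145649981, minus strand), stood at 82.4 and 105 CPM in Foxp3-DTR C and D, against 29.4 and 58.9 CPM in WT A and C. The 4 libraries thus came in the same order as for Ctgf, with a WT A value that was lower relative to WT C. The log2 fold change was 1.09 ± 0.35 (SE), with a 95% interval of 0.24 to 1.94 and an edgeR adjusted p of 0.218. DESeq2 gave an adjusted p of 0.0349, and edgeR without WT C gave 0.0346 at a log2 fold change of 1.68, while without WT A the log2 fold change was 0.69 and the adjusted p 0.262. WT A was also the library with the highest sum of 6 sebaceous gland markers, at 2145 CPM, against 453 and 564 CPM in Foxp3-DTR C and D and 439 CPM in WT C. The part of these cells in the lower Cyr61 and Ctgf values of WT A was not tested. Fibroblasts also express both genes. Of the 8 fibroblast markers 3 were tested, with 1 positive and 2 negative fold changes, and the part of such cells in these values was not tested.

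Cyr61 and Ctgf also belong to the genes that respond quickly to serum and cell handling. Of 10 immediate early and dissociation genes 1 rose and 0 fell in edgeR's test, against 0.82% and 0.426% of all tested genes. The gene that rose was the AP-1 subunit Junb, at 282 and 221 CPM in Foxp3-DTR, against 70.4 and 72.8 CPM in WT (edgeR adjusted p = 0.0174). The list summed to 1028 and 800 CPM in Foxp3-DTR, against 628 and 552 CPM in WT, and its part in the values of Cyr61 and Ctgf was not tested. Of the 10 genes 9 had positive fold changes, with a median log2 fold change of 0.45. Atf3, a stress-induced transcription factor named after its values were seen, stood at 10.4 and 10.9 CPM in Foxp3-DTR, against 0.634 and 1.97 CPM in WT (log2 fold change 3.02 ± 0.65, SE, edgeR adjusted p = 0.0823). Fos, a classical immediate early gene named the same way, stood at 22.9 and 57.5 CPM in Foxp3-DTR, against 39.4 and 20.1 CPM in WT, and did not separate the groups.

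Amotl2 (chromosome 9, 102716672 to 102733418, plus strand), a target that feeds back on YAP, stood at 39.9 and 40.6 CPM in Foxp3-DTR C and D, against 43.9 and 35.1 CPM in WT A and C. Both Foxp3-DTR values lay between the WT values. Its log2 fold change was 0.03 ± 0.22 (SE), with a 95% interval of -0.49 to 0.55 and an edgeR adjusted p of 0.975.

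Ankrd1 (chromosome 19, 36111961 to 36120099, minus strand), best known as a stretch-responsive gene of muscle, had 0 counts in all 4 libraries. At a floor of 3 counts this allows at most 0.213 CPM in any library, so the gene gave no reading of the pathway here. The 4 targets therefore fell into 3 patterns: higher values with no overlap between the groups, no difference beyond the replicate spread, and no detection. The bearing of the letters CATTCC in Cyr61, Amotl2 and Ankrd1 on these patterns was not tested.

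**Figure D3:**
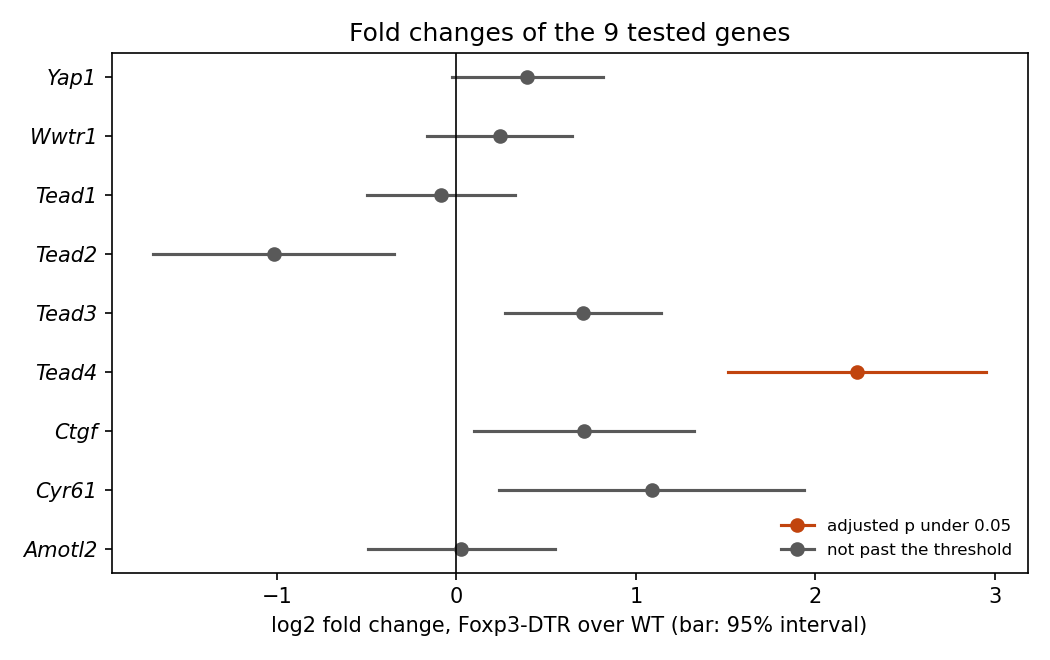
Log2 fold change of Foxp3-DTR over WT for the 9 tested genes from edgeR, with dots for the estimate and bars for the 95% interval. Tead4, at 2.23, is the only gene past the adjusted threshold, and Tead2, at -1.02, and Cyr61, at 1.09, are the other genes more than 1 away from 0.

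The order of levels between the members was similar in the groups, with Tead4 and Tead2 as the main exceptions. Ctgf was the most abundant per kb of exon, at 283 and 335 CPM per kb in Foxp3-DTR, against 150 and 227 CPM per kb in WT. In Foxp3-DTR, Cyr61, at 40.8 and 52.2 CPM per kb, and Yap1, at 40.6 and 43.5 CPM per kb, came next, and their ranges overlapped. They were followed by Wwtr1, Tead3, Tead4, Amotl2, Tead1 and Tead2, and none of these neighbours overlapped in the 2 libraries. In WT, Yap1 came second at 31.7 and 32.3 CPM per kb. Cyr61, at 14.6 and 29.2 CPM per kb, overlapped with Wwtr1, at 21.6 and 21.8 CPM per kb. Tead3 followed, and Tead2, Amotl2 and Tead1 overlapped with each other between 5.16 and 7.31 CPM per kb, above Tead4. Ctgf was 6.92 and 6.42 times Cyr61 per kb in Foxp3-DTR C and D, against 10.3 and 7.77 times in WT A and C.

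**Figure D4:**
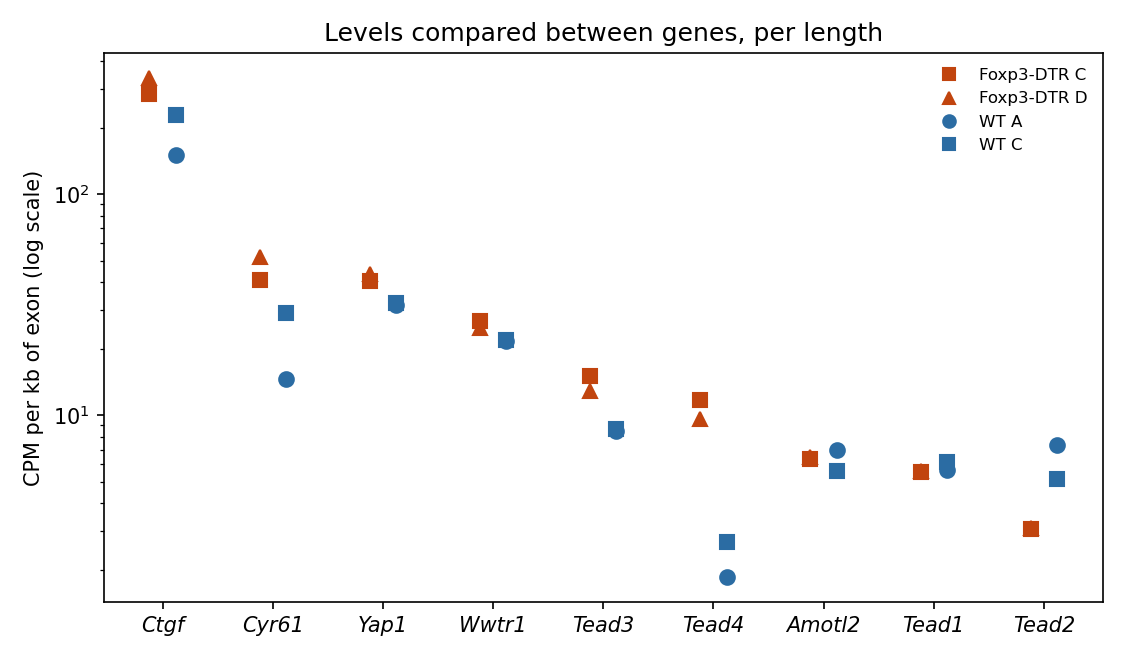
Level of the 9 detected genes in each library, in CPM per kb of exon on a log axis, Foxp3-DTR left of WT for each gene and symbols marking replicates. Ctgf is highest in all 4 libraries, and Tead4 lies above Amotl2, Tead1 and Tead2 in Foxp3-DTR and below them in WT.

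The genes whose values across the 4 libraries were nearest to those of Ctgf and Cyr61 were looked up as a description. Nearness was the Euclidean distance between log2 CPM values, each centred on the gene's own mean. Nearest to Ctgf were Ptk2b, a focal adhesion kinase relative, Dnaaf3, a dynein assembly factor, and Lonrf1, at distances of 0.03, 0.08 and 0.09. Ptk2b stood at 54.5 and 65.7 CPM in Foxp3-DTR, against 28.9 and 43.0 CPM in WT. Nearest to Cyr61 were Fam13a, Adck3 and Me3, a mitochondrial malic enzyme, at distances of 0.17, 0.21 and 0.22. Fam13a stood at 77.2 and 90.2 CPM in Foxp3-DTR, against 23.7 and 53.8 CPM in WT. With only 4 libraries such likeness is common: 704 of 11195 genes lay within a distance of 0.5 of Ctgf, and 68 within that of Cyr61.

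The genes that act on YAP and TAZ from upstream did not pass the threshold. Of 35 Hippo kinases and upstream regulators, all tested, 0 were called in edgeR's test, in DESeq2 or in limma-voom. Of the 35, 2 had an unadjusted edgeR p under 0.05, against 14.6% of all tested genes. The median log2 fold change of the 35 was 0.09, and for 31 of them the 95% interval lay within -1 to 1. The kinases themselves were detected in all libraries. Lats1 stood at 134 and 97.8 CPM in Foxp3-DTR, against 101 and 107 CPM in WT. Stk3, which encodes MST2, stood at 34.0 and 26.9 CPM in Foxp3-DTR, against 16.7 and 26.8 CPM in WT. Both were named after their values were seen. The 3 genes with the smallest p were Rassf1 and the pair Wwc1 and Wwc2, which encode KIBRA scaffold proteins that promote LATS activation. The log2 fold changes of Wwc1, Wwc2 and Rassf1 were 0.995 ± 0.370, 0.51 ± 0.20 and 0.37 ± 0.19 (SE), with edgeR adjusted p of 0.277, 0.315 and 0.457. Wwc1 stood at 31.6 and 27.5 CPM in Foxp3-DTR, against 19.8 and 9.90 CPM in WT.

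The Vestigial-like proteins bind TEAD factors in place of YAP. Of their 4 genes, Vgll1 and Vgll2 had 0 counts in all libraries. Vgll4, which competes with YAP, stood at 78.4 and 68.3 CPM in Foxp3-DTR, against 66.0 and 94.3 CPM in WT (log2 fold change -0.13 ± 0.23, SE). Vgll3 stood at 2.92 and 5.17 CPM in Foxp3-DTR, against 9.79 and 5.41 CPM in WT (log2 fold change -0.91 ± 0.55, SE). The edgeR adjusted p was 0.873 for Vgll4 and 0.548 for Vgll3. The other CCN family genes Nov, Wisp1, Wisp2 and Wisp3 had at most 4 counts in any library, so Ctgf and Cyr61 were the CCN genes with more than a few counts in these cells.

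A further 18 genes of a published YAP and TAZ target signature, without the members, gave fold changes of both signs. Lats2 and Ptpn14 are on this list and also among the Hippo regulators above. Of the 17 tested, 0 were called in edgeR's test and 0 in limma-voom, and the smallest adjusted p in edgeR's test was 0.0575. At an unadjusted edgeR p under 0.05, 5 were higher and 3 lower, against 6.76% and 7.89% of all tested genes. DESeq2 called 5 higher and 3 lower, against 3.61% and 3.79% of all its tested genes. The median log2 fold change was 0.17, with 11 positive and 6 negative. Axl, a receptor tyrosine kinase, stood at 485 and 362 CPM in Foxp3-DTR, against 181 and 194 CPM in WT (log2 fold change 1.175 ± 0.211, SE, edgeR adjusted p = 0.0575). Both Foxp3-DTR libraries were well above both WT libraries. The log2 fold change was 1.38 without Foxp3-DTR D and 0.95 without Foxp3-DTR C, so its size depended on which Foxp3-DTR library was kept. It was 1.14 without WT A and 1.23 without WT C.

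Dock5, an activator of Rac, stood at 34.4 and 26.7 CPM in Foxp3-DTR, against 10.5 and 12.2 CPM in WT (log2 fold change 1.43 ± 0.28, SE, edgeR adjusted p = 0.069). Rbms3, an RNA-binding protein, stood at 98.9 and 87.5 CPM in Foxp3-DTR, against 31.0 and 47.6 CPM in WT (log2 fold change 1.24 ± 0.25, SE, edgeR adjusted p = 0.0739). The groups did not overlap for either gene. Igfbp3, a binding protein for insulin-like growth factors, had values in the opposite order, at 23.7 and 45.5 CPM in Foxp3-DTR, against 118 and 98.7 CPM in WT (log2 fold change -1.65 ± 0.33, SE, edgeR adjusted p = 0.0761). Nt5e, named after its values were seen, encodes a cell surface nucleotidase. It stood at 363 and 362 CPM in Foxp3-DTR, against 545 and 706 CPM in WT (edgeR adjusted p = 0.131). Ccdc80, a secreted matrix protein also named after its values were seen, had the highest fold change of the list from few counts. It had 38 and 52 counts in Foxp3-DTR, against 3 and 4 counts in WT, or 2.52 and 3.68 CPM against 0.211 and 0.246 CPM (log2 fold change 3.71 ± 0.88, SE, edgeR adjusted p = 0.0999). Asap1 and Gadd45a were also named after their values were seen. Their log2 fold changes were 1.15 ± 0.24 and -1.28 ± 0.36 (SE), with edgeR adjusted p of 0.08 and 0.152. Signature genes thus stood on both sides of 0, with Axl, Dock5, Rbms3, Asap1 and Ccdc80 above and Igfbp3, Nt5e and Gadd45a below.

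Targets of SRF and its actin-sensing partners MRTF, which share some genes with YAP, had mostly negative fold changes. Of 15 tested, 2 were positive and 13 negative, with a median log2 fold change of -0.28, and 0 were called in edgeR's test or in limma-voom. Before adjustment, 0 were higher and 5 lower at an edgeR p under 0.05, against 6.76% and 7.89% of all tested genes. DESeq2 called 2 lower, against 3.79% of all its tested genes. Fhl2, a LIM domain protein, stood at 4.24 and 4.46 CPM in Foxp3-DTR, against 31.6 and 14.8 CPM in WT (log2 fold change -2.41 ± 0.44, SE, edgeR adjusted p = 0.0589). Vcl, the focal adhesion protein vinculin, stood at 101 and 94.9 CPM in Foxp3-DTR, against 159 and 138 CPM in WT (log2 fold change -0.60 ± 0.18, SE, edgeR adjusted p = 0.17). Myl9, a myosin light chain, had a log2 fold change of -1.91 ± 0.49 (SE) and an edgeR adjusted p of 0.123. Acta2, smooth muscle actin, had -3.22 ± 1.175 (SE) and an edgeR adjusted p of 0.268, on 3 and 3 counts in Foxp3-DTR, against 47 and 11 counts in WT A and C. Without WT A these log2 fold changes were -1.67 for Acta2, -1.75 for Fhl2 and -1.31 for Myl9. Ctgf and Cyr61 had positive fold changes while most of this list was negative, and the difference between them was not tested.

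**Figure D5:**
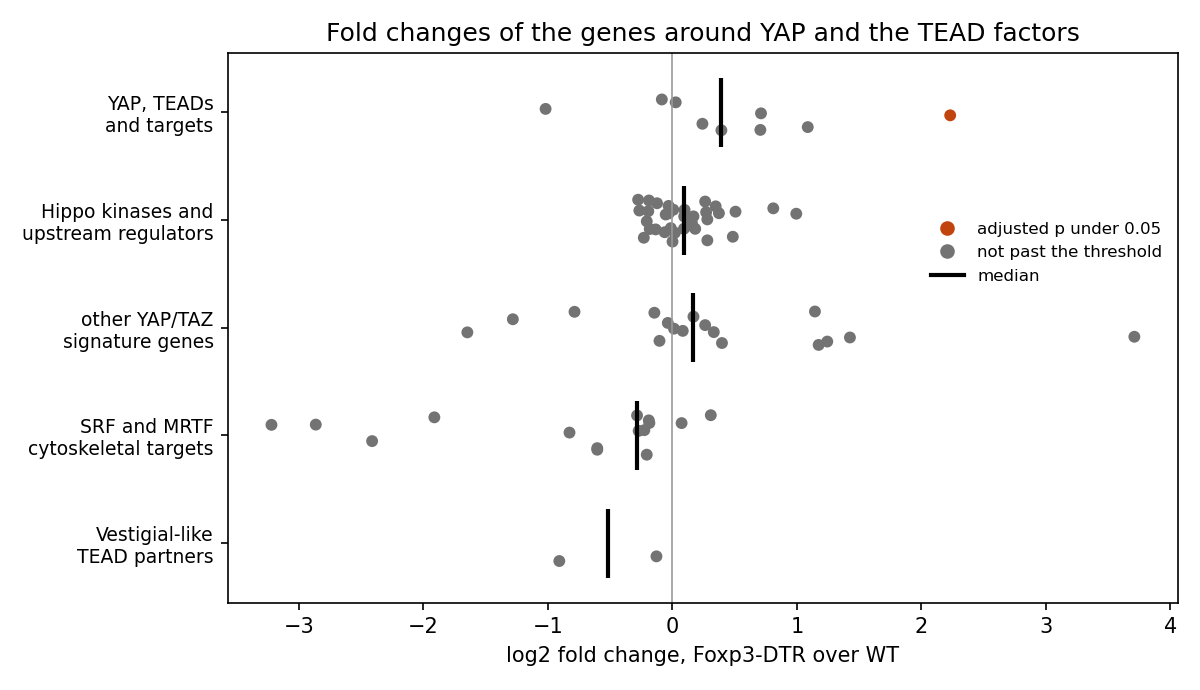
Log2 fold changes of Foxp3-DTR over WT for the tested members and 4 related gene lists, 1 dot per gene with vertical lines at the list medians. Tead4 is the only coloured dot (adjusted p under 0.05), the Hippo regulators lie between -0.27 and 0.995, and the signature genes run from -1.65 to 3.71.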

How the data were processed

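RNA was sequenced from 4 libraries with a stranded mRNA kit, per the labels' protocols. The authors deposited raw counts of reads per gene symbol. Per the submitters' processing notes, HTSeq 0.6.1, TopHat2 2.0.12, SAMtools 0.1.19.0, CASAVA 1.8.2 and Bowtie2 2.1.0.0 were used, and the build was mm10. Neither the annotation nor the counter's strand setting is given in the sources used here. Whether the antisense neighbours Gm15270 and Gm20416 affected the counts of Ctgf and Yap1 is therefore not known. Gm15270 shares 665 exon bases with Ctgf and Gm20416 shares 116 with Yap1, and neither neighbour had a gene row. Cd37, which shares 13 exon bases with Tead2, had 6 counts in WT A and 0 in the other libraries. The 5 rows that name no gene held 62% to 70.1% of counts and were left out.

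Foxp3-DTR and WT libraries were compared with edgeR 4.0.16 under R 4.3.3 (TMM, filterByExpr, robust quasi-likelihood fit, no covariate), adjusted over 12920 genes. The common biological coefficient of variation was 0.309. SE and 95% intervals came from the fold change and F statistic. DESeq2 1.42.0, limma-voom (limma 3.58.1), RLE factors, no filter and leaving out each library were the alternatives. The fits were tested on simulated counts. Coordinates and exon lengths came from GENCODE M21 (GRCm38), where Ctgf and Cyr61 are named Ccn2 and Ccn1. Floors of 3 counts cover counting error only.

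All 10 members are named. Of each related list, genes past the threshold and the 4 smallest p-values are named, and other genes only where stated as chosen after their values were seen, or to describe markers and libraries. Of the genes this rule took, 1 is omitted from the text. Members and lists were chosen with earlier results of these data known.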

Additional observations from a re-analysis of the deposited data

How the results depend on the processing

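No paired analysis was possible because the groups share only 1 replicate letter. Over the 9 tested members and 8 alternatives, 67 of 72 values kept their direction and their side of the threshold. The exceptions were Tead4 without Foxp3-DTR C, Tead3 with DESeq2, Cyr61 with DESeq2 and without WT C, all given above, and Amotl2, whose log2 fold change was -0.12 without WT C and 0.21 without WT A. Among the related genes Vgll4 changed sign too, to 0.16 without WT C, against -0.35 without WT A. DESeq2 called 3 members higher (Tead4, Tead3 and Cyr61), and leaving out 1 library gave 0 to 2 higher and 0 lower. Over all genes, DESeq2 called 489 higher and 514 lower, no filter 277 and 252, and limma-voom 70 and 23, against 106 and 55 in edgeR's test. Leaving out 1 library gave 66 to 203 higher and 14 to 220 lower. Of the signature genes DESeq2 called 5 higher and 3 lower, no filter 4 and 1, and leaving out 1 library 0 to 1 in each direction. Of the SRF and MRTF targets DESeq2 called 2 lower, no filter 1, and leaving out 1 library 0 to 1. The cause of these differences was not tested. A fit without a library leaves 1 in its group, which is assumed to vary like the other group. The median log2 fold change of all genes stayed between -0.02 and 0.01 in all settings. With 2 libraries per group, differences as small as those of Yap1 and Wwtr1 were within the error.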
